A study of Homo sapiens with 12 samples.

Results

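The 37 genes described here encode the working parts of the lysosome and of autophagy: 2 transcription factors, 4 lysosomal membrane proteins, 11 hydrolases, 2 lumenal cofactors, 8 subunits of the proton pump and 10 proteins of the autophagy machinery. They were listed by symbol from what their products do, with earlier results of these data known. Of 25552 genes with an estimated count above 0, at 6 decimals, in any library and 15098 genes with enough counts to test, all 37 were tested. The cells were WM-266-4, a human melanoma cell line, in which TYRO3, a receptor tyrosine kinase, had been knocked down stably with a lentiviral shRNA. Every group carried this knock-down, grew under puromycin, was transfected with a pEZY-myc-his plasmid with jetPRIME and was serum starved overnight before polyA RNA was sequenced.

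The 4 groups differed in the plasmid. The GFP group received GFP, as the labels give it (the study's text speaks of a vector control and of an empty plasmid), and the WT group received wild-type TYRO3. The ΔGS group received TYRO3 with the substitution I449A, which resists cleavage by gamma-secretase. The ΔADAM group received TYRO3 with the substitutions P408A, L409P and G419P, which resists shedding by ADAM proteases. Each group was prepared once in each of 3 experiments, which gave 12 libraries. The TYRO3 of the 3 construct groups was over-expressed from a plasmid in 1 cell line. The p-values rest on the spread left between libraries after terms for group and experiment. They cover these experiments in this line only.

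Lysosomes degrade macromolecules with hydrolases that need an acidic lumen, and the vacuolar ATPase (V-ATPase) pumps the protons. Autophagy delivers cytoplasmic cargo to them in double-membraned vesicles. Transcription factors of the MiT/TFE family, TFEB, TFE3, MITF and TFEC, bind E-box motifs in the promoters of many of these genes, and mTORC1 on the lysosomal surface holds TFEB and TFE3 in the cytoplasm when nutrients are plentiful. In melanocytic cells MITF is also the master regulator of pigment genes, and the melanosome is a lysosome-related organelle.

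Library totals ranged from 4008293 estimated counts in the GFP library of experiment 1 to 38184838 in the GFP library of experiment 2, with a median of 23302001. The shallow library also lay farthest from the fitted values, with a root mean square residual of 0.398 on the log2 scale against 0.205 to 0.276 in the other libraries. TYRO3 was at 27.7 to 36.4 TPM (a level scaled to the library total and corrected for transcript length) in the GFP libraries and at 640.5 to 1959 TPM in the construct libraries, so each library matched its label as GFP or construct. The sum per gene does not tell the 3 constructs apart. The construct libraries of experiment 1 held 1687 to 1959 TPM of TYRO3 and those of experiments 2 and 3 held 640.5 to 988 TPM. PMEL and SOX10, defining melanocytic markers, were at 709 to 1256 and 213 to 388 TPM, KRT5 and KRT1 of keratinocytes were listed at 0 in every library, and CD3E of T cells was above 0 in 1 library, at 0.11 TPM. LUM, a fibroblast marker, was at 36.2 to 84.5 TPM while COL1A2 stayed at or under 0.151 TPM, and the keratin KRT10 was at 76.7 to 116 TPM.

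The levels of the 37 genes spanned a wide range. PSAP, the precursor of the saposins that present sphingolipids to hydrolases, had the highest level, at 1066 to 1268 TPM over the 12 libraries. SQSTM1, the autophagy receptor p62, came next at 479 to 944 TPM, and the cathepsins CTSL, CTSD and CTSB followed with means of 291, 272 and 224 TPM. The ranges of CTSL (196 to 337 TPM) and CTSD (233 to 346 TPM) overlapped over the 12 libraries, but their order differed between groups. CTSD was higher in the GFP libraries, at 280 to 288 TPM against 196 to 242 TPM for CTSL. CTSL was higher in the construct libraries except the ΔGS library of experiment 3, with 328 TPM against 346 TPM for CTSD. Among the 37 genes, ATP6V1E1, a stalk subunit, was the V-ATPase gene with the highest mean, 188 TPM. LAMP2, a membrane glycoprotein, had the highest mean of the listed membrane proteins, 178 TPM. At the lower end, TFE3 was at 18 to 29.6 TPM, ULK1 at 6.82 to 16.2 TPM and TFEB at 1.16 to 3.59 TPM.

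**Figure D1:**
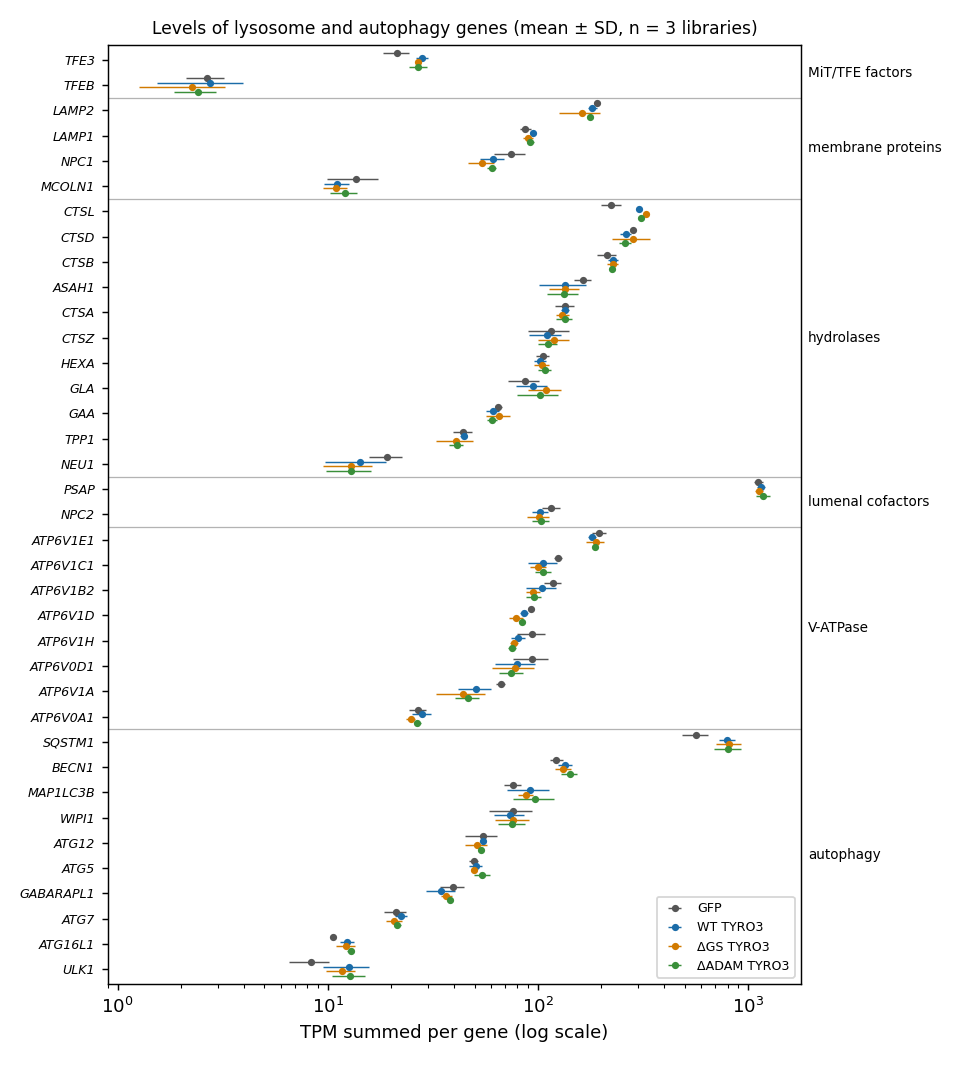
Level of each of the 37 genes in TPM on a log scale, grouped by role, with the mean of 3 libraries as a point and the SD as a bar for the GFP, WT, ΔGS and ΔADAM groups. PSAP stands highest, with group means of 1121 to 1183 TPM, and TFEB lowest, with group means of 2.26 to 2.74 TPM, and for most genes the bars of the 4 groups overlap.

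The first question was which of these genes differed between cells that received any TYRO3 construct and cells that received GFP. A gene was called when its adjusted p was at most 0.05 in edgeR's quasi-likelihood test, with the Benjamini-Hochberg adjustment over all 15098 genes. With the 9 construct libraries set against the 3 GFP libraries within experiments, CTSL, SQSTM1 and ATG7 were higher, and the sialidase NEU1, the acid ceramidase ASAH1 and the V-ATPase subunits ATP6V0D1, ATP6V1A, ATP6V1B2 and ATP6V1C1 were lower. These 9 calls are 24.3% of the 37 genes, against 15.8% of all genes tested. The median log2 fold change was -0.07 over the 37 genes and 0.00 over all genes. RNA from the whole culture cannot tell fewer cells of a type from less RNA per cell.

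NEU1 was the only one of the 37 to pass the study's additional limit of a 1.5-fold change, which 5.68% of all genes passed. The study set this limit on transcripts of the different variants, while here it was set on sums per gene with the constructs pooled. The 9 calls rested on the experiment term. With a coarser term for experiment 1 against experiments 2 and 3, which takes the study's split into batches but not its correction of TPM values with batchelor, CTSL, NEU1, ATP6V1A and ATP6V1C1 kept their calls and the count was 4, and with no term for experiment or batch it was 0. The count was 2, CTSL and NEU1, without the shallow GFP library of experiment 1, and 4 without the GFP library of experiment 3. In experiments 2 and 3 alone it was 0, where 2.77% of all genes were called.

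**Figure D2:**
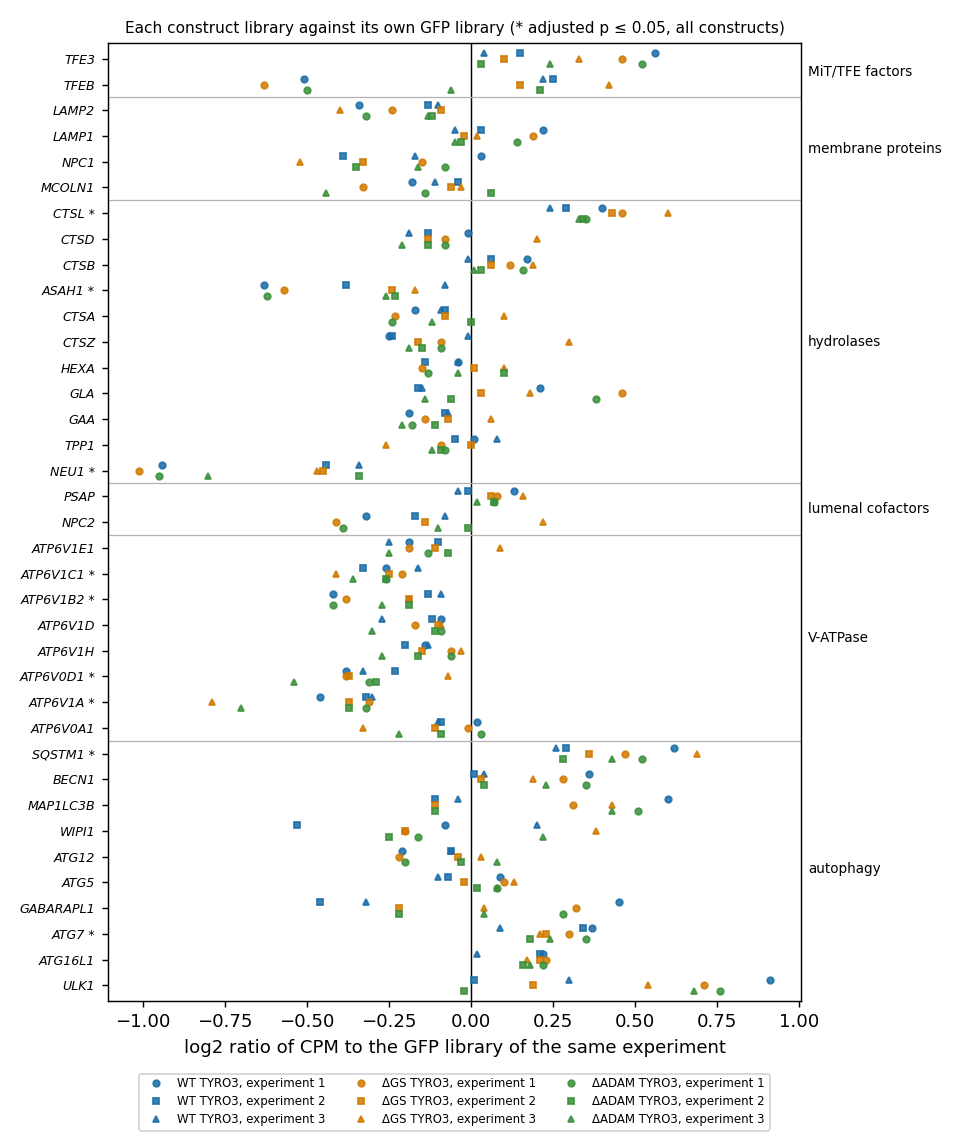
Log2 ratio of CPM (read counts scaled to the library total after TMM) in each construct library to the GFP library of the same experiment, for the 37 genes grouped by role, coloured by construct and with 1 symbol per experiment; asterisks mark the 9 genes called in all constructs against GFP. NEU1 reaches -1.01, the V-ATPase points lie almost wholly left of 0, and the points of CTSL, SQSTM1 and ATG7 lie right of it.

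Neither of the 2 listed transcription factors was called. TFEB was at 2.63, 2.99 and 2.22 CPM in the GFP libraries of experiments 1, 2 and 3. It was at 1.70, 3.65 and 2.66 CPM with WT TYRO3, at 1.53, 3.37 and 3.15 CPM with ΔGS and at 1.71, 3.53 and 2.12 CPM with ΔADAM. The groups overlapped, with the construct libraries of experiment 1 lowest, and the log2 fold change of all constructs against GFP was 0.07 (95% interval -0.37 to 0.52, adjusted p = 0.852 in edgeR). At these low counts the direction was not settled, since 5 alternative settings gave a negative value.

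TFE3 was at 37.6, 45.9 and 46.8 CPM in the GFP libraries. The values were 55.5, 51.1 and 48.2 CPM with WT TYRO3, 52.0, 49.2 and 59.0 CPM with ΔGS and 54.3, 46.8 and 55.2 CPM with ΔADAM. Each construct library lay above the GFP library of its own experiment, although the lowest construct value only matched the highest GFP value, and the log2 fold change of 0.24 (SE 0.090) had an edgeR adjusted p of 0.0888. Without the WT library of experiment 3 it was called, at 0.28 with an adjusted p of 0.0458. In the shallow GFP library the coding transcript TFE3-201 was at 0.196 TPM against 18 to 24.8 TPM elsewhere, a nonsense-mediated decay transcript of the gene was at 14.4 TPM against 1.29 to 5.79 TPM, and the sum per gene was the lowest of the 12 libraries there on both scales. The log2 ratios to this library, 0.56, 0.46 and 0.52 with WT, ΔGS and ΔADAM TYRO3, were the highest of the 9. Over the 12 fits that left out 1 library, this one among them, the TFE3 value was 0.16 to 0.34. The edgeR adjusted p in those fits was 0.0458 to 0.321, with 1 call. The part of the transcript split in this library was not tested.

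The 4 membrane proteins had no call. LAMP2 was at 367, 326 and 329.8 CPM in the GFP libraries. It was at 289.7, 298 and 308 CPM with WT TYRO3, at 309, 306 and 249 CPM with ΔGS and at 294, 299.9 and 301 CPM with ΔADAM. All 9 construct values were below the 3 GFP values, with a log2 fold change of -0.21 (SE 0.071, edgeR adjusted p = 0.0728). NPC1, the cholesterol exporter, had a log2 fold change of -0.24 and an adjusted p of 0.0584 in edgeR, and LAMP1 and the calcium channel MCOLN1 had 0.04 and -0.13. LAMP2 and NPC1 were each called in 1 of the 12 fits that left out 1 library. NPC1 was also called in 3 of 10 other settings.

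Among the 11 hydrolases 1 rose and 2 fell, against 7.23% of all genes called higher and 8.6% called lower. CTSL, an acid cysteine protease (ENSG00000135047, chromosome 9, 87725519 to 87731393 on GRCh38), was at 177, 184 and 194 CPM in the GFP libraries. It was at 234, 226 and 229 CPM with WT TYRO3, at 243, 249 and 295 CPM with ΔGS and at 225, 233 and 243 CPM with ΔADAM. The groups did not overlap, and the log2 fold change of all constructs against GFP was 0.38 (SE 0.061, edgeR adjusted p = 0.00381). Its 3 largest transcripts each had a higher mean TPM in every construct group than in the GFP group. CTSL kept its call in all 12 fits that left out 1 library.

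NEU1, which removes sialic acid from glycoproteins and glycolipids (ENSG00000204386, chromosome 6, 31857659 to 31862906), was at 23.7, 24.9 and 30.0 CPM in the GFP libraries. It was at 12.1, 18.2 and 23.7 CPM with WT TYRO3, at 11.5, 18.1 and 21.5 CPM with ΔGS and at 12, 19.6 and 17 CPM with ΔADAM. Every construct value lay below every GFP value, the highest by a small margin. The gap was widest in experiment 1, where the log2 ratios with WT, ΔGS and ΔADAM were -0.94, -1.01 and -0.95. They were -0.44, -0.45 and -0.34 in experiment 2 and -0.34, -0.47 and -0.80 in experiment 3. NEU1 fell by 0.61 on the log2 scale with all constructs (SE 0.116, edgeR adjusted p = 0.00736), and it too kept its call in all 12 fits that left out 1 library.

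ASAH1, which splits ceramide, was at 178, 190.5 and 199 CPM in the GFP libraries. It was at 115, 146 and 188 CPM with WT TYRO3, at 119.8, 161 and 177 CPM with ΔGS and at 116, 163 and 166 CPM with ΔADAM. Values overlapped between groups across experiments, but each construct library was below the GFP library of its own experiment, and the log2 fold change was -0.35 (SE 0.081, edgeR adjusted p = 0.0171). The change was larger in experiment 1, and without its GFP library the value was -0.21 with an adjusted p of 0.136. The main coding transcripts did not fall with every construct. ASAH1-249, the largest, had a mean of 50.5 TPM with GFP and 52.5, 39.7 and 41.1 TPM with WT, ΔGS and ΔADAM TYRO3. ASAH1-251 was at 19.4 against 15.8, 22.1 and 17.7 TPM. The other 8 hydrolases had values between -0.11 and 0.09 and were not called. Of the cofactors, PSAP had 0.06 and the cholesterol binder NPC2 -0.14, again without a call.

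All 8 listed V-ATPase subunits had a negative log2 fold change with all constructs, between -0.44 and -0.11 with a median of -0.20, and 4 of the 8 fell, against 8.6% of all genes called lower. The median ratio of the 8 subunits to GFP was negative in each of the 9 construct libraries, from -0.28 to -0.14, while the median of all genes in those libraries was -0.01 to 0.02. All 8 values stayed negative under each of the 22 other settings tried. The number called among the 8 was 0 in 4 of these settings, namely without the GFP library of experiment 1, without that of experiment 3, in experiments 2 and 3 alone and with no term for experiment or batch.

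ATP6V1A, the catalytic subunit of the peripheral sector (ENSG00000114573, chromosome 3, 113747019 to 113812056), was at 149, 185 and 188 CPM in the GFP libraries. It was at 108, 148 and 152 CPM with WT TYRO3, at 120.0, 143 and 108 CPM with ΔGS and at 119, 142 and 116 CPM with ΔADAM. Only the WT library of experiment 3 reached the GFP range, and the log2 fold change was -0.44 (SE 0.092, edgeR adjusted p = 0.0112). The ΔGS and ΔADAM libraries of experiment 3 had the largest drops, with log2 ratios of -0.79 and -0.70. Without the GFP library of experiment 1 the value was -0.46 (edgeR adjusted p = 0.0503), and without that of experiment 3 it was -0.35 (adjusted p = 0.0869). The coding transcript ATP6V1A-201 held 86.7% of the gene's TPM. In experiment 1 it was at 37.7 TPM with GFP and at 34.9, 38.9 and 39.6 TPM with WT, ΔGS and ΔADAM TYRO3. In experiments 2 and 3 it was lower in each construct library than in the GFP library.

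ATP6V1C1, a stalk subunit, was at 169.6, 199 and 209 CPM in the GFP libraries, at 141, 158 and 188 CPM with WT TYRO3, at 146, 168 and 158 CPM with ΔGS and at 142, 166 and 163 CPM with ΔADAM. Its log2 fold change was -0.28 (SE 0.063, edgeR adjusted p = 0.0154). The largest transcript, the coding ATP6V1C1-205, did not have a lower mean with any construct. It was at 46.9 TPM with GFP and 57.7, 47.8 and 54.7 TPM with WT, ΔGS and ΔADAM TYRO3. The coding ATP6V1C1-202 had a lower mean with each construct. So did ATP6V1C1-206, which retains an intron, at 36.4 against 17.9, 20.5 and 21.1 TPM. The part of these transcripts in the gene's value was not tested. ATP6V1B2, the brain-type B subunit of the peripheral ring, was at 205, 194 and 218 CPM in the GFP libraries, at 153, 177 and 205 CPM with WT TYRO3, at 157, 171 and 192 CPM with ΔGS and at 153, 171 and 181 CPM with ΔADAM. Its log2 fold change was -0.25 (SE 0.061, edgeR adjusted p = 0.0214). For both genes each construct library lay below its own GFP library, with 1 WT library inside the GFP range across experiments. ATP6V1C1 lost its call without the GFP library of experiment 1, 2 or 3, with values of -0.28, -0.28 and -0.26 and edgeR adjusted p-values of 0.0721, 0.0651 and 0.0844. ATP6V1B2 lost it without the GFP library of experiment 1 (-0.16, adjusted p = 0.172), that of experiment 3 (-0.28, adjusted p = 0.0557) or the ΔADAM library of experiment 1 (-0.23, adjusted p = 0.0594).

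ATP6V0D1, which joins the membrane sector to the stalk (ENSG00000159720, chromosome 16, 67438014 to 67481237), was at 73.9, 93.6 and 105 CPM in the GFP libraries. It was at 56.5, 79.8 and 83.6 CPM with WT TYRO3, at 56.8, 72.3 and 100.05 CPM with ΔGS and at 59.6, 76.6 and 72.1 CPM with ΔADAM. The experiments differed as much as the groups, yet each construct library was below its own GFP library. Its log2 fold change was -0.32 (SE 0.085, edgeR adjusted p = 0.0296), and the call held in 6 of the 12 fits that left out 1 library. It was lost without any of the 3 GFP libraries, the WT library of experiment 1 or the ΔGS library of experiment 1 or 2, with values of -0.33 to -0.29. The coding transcript ATP6V0D1-201, with 88.9% of the gene's TPM, was not lower in experiment 1. There it was at 53.3 TPM with GFP and at 55.4, 53.7 and 58.5 TPM with WT, ΔGS and ΔADAM TYRO3. In experiments 2 and 3 it was lower in each construct library than in the GFP library. The part of the transcript split in this value was not tested.

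Among the 10 autophagy genes 2 rose, against 7.23% of all genes called higher, and none fell. SQSTM1 (ENSG00000161011, chromosome 5, 179806398 to 179838078) was at 721, 771 and 933 CPM in the GFP libraries. It was at 1107, 941 and 1117 CPM with WT TYRO3, at 997, 986 and 1503 CPM with ΔGS and at 1036, 938 and 1260.1 CPM with ΔADAM. The 9 construct values exceeded the 3 GFP values, the lowest only just, with a log2 fold change of 0.44 (SE 0.084, edgeR adjusted p = 0.00784). Without the GFP library of experiment 1 the value was 0.40 with an adjusted p of 0.0548, and over the 12 fits that left out 1 library it was 0.40 to 0.50.

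ATG7, the E1-like enzyme that activates LC3 and ATG12 (ENSG00000197548, chromosome 3, 11272309 to 11557665), was at 21.0, 19.9 and 25.6 CPM in the GFP libraries. It was at 27.4, 25.3 and 27.2 CPM with WT TYRO3, at 26.1, 23.4 and 29.7 CPM with ΔGS and at 26.9, 22.5 and 30.4 CPM with ΔADAM. Each construct library lay above its own GFP library, and the log2 fold change was 0.25 (SE 0.076, edgeR adjusted p = 0.0459). On the TPM scale the GFP libraries were at 24.0, 19.0 and 20.3 TPM and the constructs at 19.5 to 24.0 TPM, and limma on log2(TPM + 1) gave 0.03 with an adjusted p of 0.844. The call held in 2 of the 12 fits that left out 1 library, those without the WT or the ΔGS library of experiment 3, and over all 12 the value was 0.23 to 0.29 and the adjusted p up to 0.148.

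The other autophagy genes were not called. ULK1, the kinase that starts the process, had a log2 fold change of 0.40 with an edgeR adjusted p of 0.0618. It was called in 2 of the 12 fits that left out 1 library and in 4 of 10 other settings. ATG16L1, which places LC3 on membranes, was at 19.8 to 21.6 CPM in the GFP libraries and 22.0 to 24.7 CPM in the constructs, without overlap and without a call (0.18, adjusted p = 0.106 in edgeR). BECN1 had 0.16, MAP1LC3B 0.20, GABARAPL1 -0.06, WIPI1 -0.07, ATG12 -0.07 and ATG5 0.03 on the same log2 scale. MAP1LC3B has a nearly identical copy in the genome, so its estimated counts depend on how shared reads were split.

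**Figure D3:**
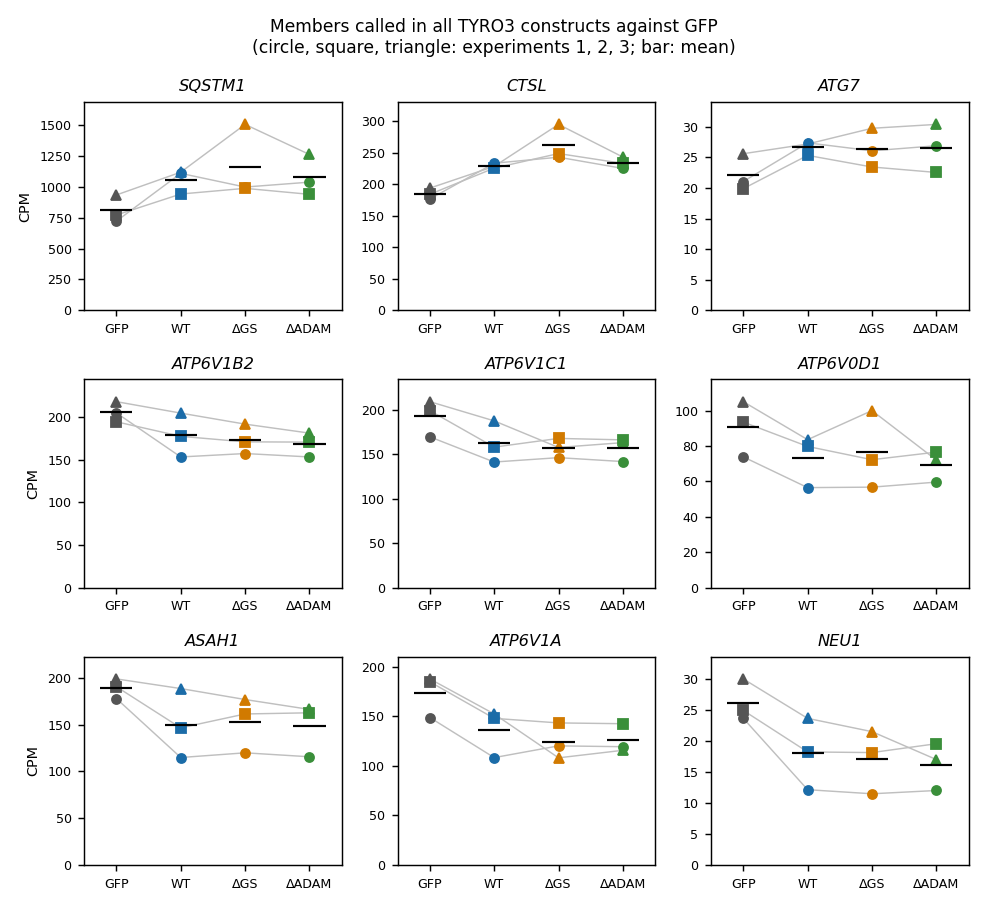
CPM, on axes that start at 0, of the 9 called genes in each of the 12 libraries, with experiments 1, 2 and 3 as circles, squares and triangles joined by grey lines and the group mean as a black bar. CTSL and SQSTM1 lie higher and NEU1 lower in all 9 construct libraries than in the GFP libraries, while for ASAH1 and ATP6V0D1 the experiments spread as widely as the groups.

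Counted by library, 5 genes (CTSL, SQSTM1 and ATG16L1 higher, NEU1 and LAMP2 lower) had all 9 construct values outside the GFP range. This is 13.5% of the 37, against 10.2% of all genes tested. On the looser measure of 9 construct libraries all on 1 side of the GFP library of their own experiment, 15 genes qualified, 6 higher and 9 lower. These are 40.5% of the 37, against 26.5% of all genes.

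Melanocytic markers moved in the same comparison. The summed level of the 7 markers SOX10, PMEL, MLANA, TYR, DCT, TYRP1 and S100B was 1516 to 1844 TPM in the GFP libraries, 1025 to 1867 with WT, 1042 to 1514 with ΔGS and 1055 to 1559.8 with ΔADAM TYRO3. DCT, PMEL, SOX10 and TYR were called lower with all constructs, DCT with a log2 fold change of -1.17 and SOX10 with -0.30. MLANA (-0.56) and S100B (-0.40) were not called. TYRP1, at 0.251 to 3.81 TPM, had a positive value of 0.65 (edgeR adjusted p = 0.119) and was above its own GFP library in all 9 construct libraries. Of the 5 fibroblast markers LUM was called lower (-0.65) and COL1A1 higher (0.40), and the list summed to 72.6 to 94.6 TPM in the GFP libraries and 47.4 to 75.1 TPM in the constructs. The keratinocyte list summed to 77.1 to 117 TPM, nearly all KRT10, and the leukocyte list to 1.35 to 3.74 TPM over the 12 libraries. Of these lists only KRT10 and LYZ had enough counts to test, and neither was called. The part of these markers in the lysosomal values was not tested.

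The second question was what each construct did on its own. The 3 comparisons share the same 3 GFP libraries, so their values are given side by side. With WT TYRO3, 1 of the 37 genes was called, CTSL (log2 fold change 0.31, edgeR adjusted p = 0.0455), which is 2.70% against 3.58% of all genes. With ΔGS, 5 were called, 13.5% against 8.95% of all genes: CTSL (0.50) and SQSTM1 (0.51) higher and NEU1 (-0.62), ATP6V1A (-0.49) and ATP6V1C1 (-0.29) lower. With ΔADAM, 8 were called, 21.6% against 10.2% of all genes: CTSL (0.34) and SQSTM1 (0.41) higher and NEU1 (-0.67), ASAH1 (-0.37), ATP6V0D1 (-0.37), ATP6V1A (-0.47), ATP6V1B2 (-0.29) and ATP6V1C1 (-0.29) lower.

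With the 1.5-fold limit added, the counts among the 37 were 0 with WT, against 2.35% of all genes, 1 with ΔGS, against 4.69%, and 1 with ΔADAM, against 5.19%. That gene was NEU1 both times.

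The values of the genes not called with WT TYRO3 lay near those of the other constructs. SQSTM1 had 0.39 (edgeR adjusted p = 0.057), NEU1 -0.54 (adjusted p = 0.0644), ASAH1 -0.36 (adjusted p = 0.0754) and ATP6V1A -0.36 (adjusted p = 0.104 in edgeR). The 8 V-ATPase subunits had negative values in each comparison, with medians of -0.20, -0.20 and -0.23 for WT, ΔGS and ΔADAM.

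These counts moved with single libraries. The count for WT TYRO3 was 6 without the WT library of experiment 3 or the ΔGS library of experiment 3, and 0 without any of the other 10 libraries. For ΔGS it was 1 without the GFP library of experiment 1 or 3, 2 without the ΔGS library of experiment 2, and 3 without the ΔGS or the ΔADAM library of experiment 1. For ΔADAM it was 0 without the GFP library of experiment 1 or the ΔADAM library of experiment 1 or 3. It was 1 without the ΔADAM library of experiment 2, 2 without the WT library of experiment 2 or the GFP library of experiment 3, and 4 without the GFP library of experiment 2 or the ΔGS library of experiment 1 or 2. Without the experiment term the counts for WT, ΔGS and ΔADAM were 0, 1 and 0 with the coarser batch term and 0, 0 and 0 with none.

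The third question was whether the constructs differed from each other. Between WT TYRO3 and the mean of the cleavage-resistant constructs none of the 37 genes was called by edgeR, DESeq2 or limma, and none had an unadjusted p under 0.05 in edgeR. Of all 15098 genes 0.0% were called, and at an unadjusted p under 0.05 there were 237, or 1.57%. The largest difference among the 37 was 0.17 on the log2 scale, and all 95% intervals lay between -0.41 and 0.49. The smallest p belonged to GLA, the alpha-galactosidase, with a log2 difference of -0.17 (95% interval -0.36 to 0.01). GLA was at 63.4, 48.5 and 60.1 CPM with WT TYRO3, at 75.3, 55.1 and 75.2 CPM with ΔGS and at 71.5, 51.9 and 60.5 CPM with ΔADAM, lowest with WT in each experiment. CTSL followed with -0.11 (95% interval -0.25 to 0.03).

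Between ΔGS and ΔADAM TYRO3 none of the 37 genes was called by edgeR, DESeq2 or limma, against 0.0% of all genes. At an unadjusted p under 0.05 edgeR gave 1 of the 37 and 216 of all genes, or 1.43%. That gene was CTSL, at 243, 249 and 295 CPM with ΔGS and 225, 233 and 243 CPM with ΔADAM. Its log2 difference was 0.16 (95% interval 0.00 to 0.32, unadjusted p = 0.0466 and adjusted p = 1 in edgeR), and it was higher with ΔGS in each experiment. CTSZ, a carboxypeptidase, came next with 0.17 (95% interval -0.05 to 0.39). All intervals of the 37 genes lay between -0.39 and 0.61, limits set by the widest of them. Those of the hydrolases lay between -0.25 and 0.39 and those of the V-ATPase subunits between -0.27 and 0.34. Differences inside a gene's own interval remain within the error.

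A wider list of 124 further genes of these roles, among them the regulators of mTORC1 and the Rag GTPases, was examined for context. Of the 123 tested, 6 rose and 18 fell with all constructs, 19.5% against 15.8% of all genes, and the median log2 fold change was -0.06. By construct, 4 rose and 2 fell with WT (4.88% called against 3.58% of all genes), 6 and 7 with ΔGS (10.6% against 8.95%), and 6 and 14 with ΔADAM TYRO3 (16.3% against 10.2%). With all constructs, where 7.23% of all genes were called higher and 8.6% lower, the mTORC1 and Rag regulators had 6 lower and no higher calls among 26 genes (23.1% called). The membrane proteins had 5 lower and 1 higher among 16 (37.5%), and the autophagy genes 4 higher and no lower among 31 (12.9%). The 14 further V-ATPase genes had 3 lower and no higher calls (21.4%), and 8 of their values were negative and 6 positive (median -0.10).

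MITF, the melanocytic member of the MiT/TFE family, was at 306, 305 and 337 CPM in the GFP libraries. It was at 95, 230.3 and 254 CPM with WT TYRO3, at 123, 208 and 157 CPM with ΔGS and at 105, 214 and 157 CPM with ΔADAM. All construct values lay below all GFP values and lowest in experiment 1, with a log2 fold change of -0.96 (SE 0.172, edgeR adjusted p = 0.00582). Without the GFP library of experiment 1 it was -0.66 with an adjusted p of 0.0517. TFEC, the remaining family member, was at 0.00 to 0.253 CPM in the GFP libraries and at 0.166 to 1.31 CPM in the constructs, and was not called.

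Among the mTORC1 regulators, SESN3, a sestrin that restrains mTORC1 under amino acid shortage, was at 27.4, 45.4 and 38.7 CPM in the GFP libraries and 6.76 to 24.8 CPM in the constructs, and fell by 1.35 on the log2 scale (edgeR adjusted p = 0.00107). FLCN, the folliculin that acts on RagC and RagD, was at 48.0 to 53.9 CPM in the GFP libraries and 34.0 to 42.8 CPM in the constructs, and fell by 0.37. Among the membrane proteins LAMP3 rose by 1.09, although the ΔGS library of experiment 3, at 5.68 CPM, lay inside the GFP range of 4.20 to 8.95 CPM. LAPTM4B fell by 0.38.

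Of the autophagy genes in the wider list the cargo receptor CALCOCO2 was at 72.3 to 85.6 CPM in the GFP libraries and 101 to 152 CPM in the constructs, and rose by 0.60. ULK2, a relative of ULK1, rose by 0.47. Of the hydrolases IDS, the iduronate sulfatase, rose by 0.65, while the sulfatase SGSH and the dipeptidyl peptidase CTSC fell by 0.51 and 0.34. The wider list held 1 higher and 3 lower hydrolases among 32, or 12.5% called, under the 15.8% of all genes.

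**Figure D4:**
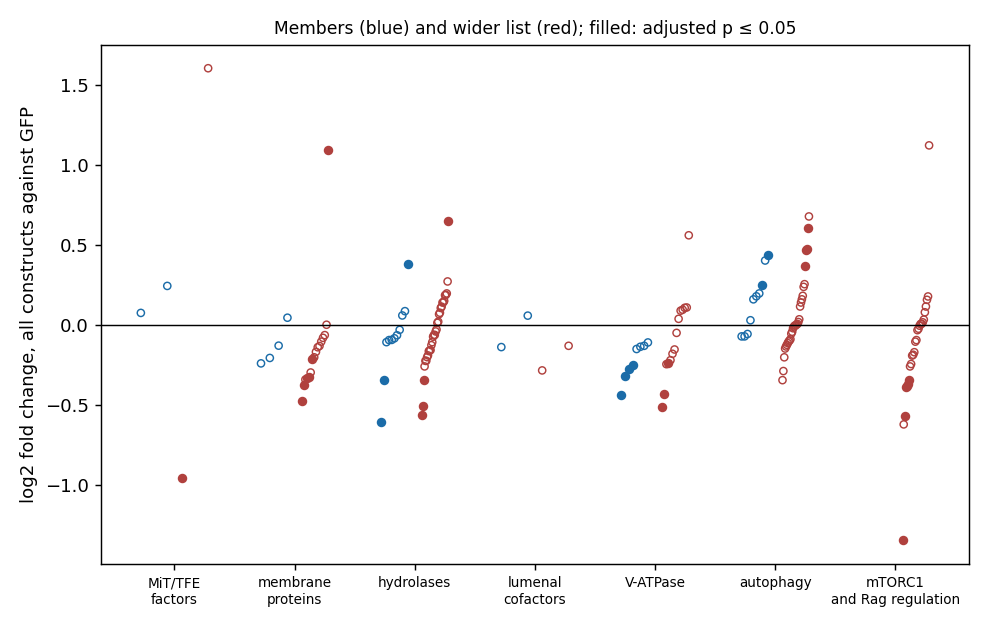
Log2 fold change of all TYRO3 constructs against GFP for each gene, by role, with the 37 members in blue and the 123 tested genes of the wider list in red; filled points have an adjusted p of at most 0.05. The blue V-ATPase points all lie under 0, SESN3 is the lowest filled point at -1.35 and LAMP3 the highest at 1.09.

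The promoters were read to show where the E-box CACGTG, the core of the motif that MiT/TFE factors bind in lysosomal promoters, lies in the called genes. The RefSeq windows used here cover 250 bases before and 50 bases after each annotated start on GRCh38.p14, and 28 of the 37 genes matched. CACGTG, which reads the same on both strands, was in 7 of the 28 (25.0%: NEU1, CTSD, LAMP1, ATP6V0D1, GAA, MCOLN1 and CTSA), against 8.77% of the 27305 genes in the table and 12.5% of the tested genes. The longer palindrome TCACGTGA, which contains it, was in 5 of the 28 (17.9%), against 1.18% of the table and 2.15% of the tested genes. Of the 6 genes that fell only NEU1 and ATP6V0D1 had a window, and both held CACGTG, while ASAH1, ATP6V1A, ATP6V1B2 and ATP6V1C1 were not examined. None of the 3 that rose held it, and LAMP1, GAA, MCOLN1, CTSA and CTSD held it without a call.

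The 250 bases before the start of NEU1 and ATP6V0D1 are given 5′ to 3′ with CACGTG in capitals. In NEU1 the window is chr6:31862822-31863071 on the minus strand, with the motif starting 126 bases before the start. In ATP6V0D1 it is chr16:67481158-67481407 on the minus strand, with the motif starting 59 bases before the start, inside the longer palindrome.
NEU1: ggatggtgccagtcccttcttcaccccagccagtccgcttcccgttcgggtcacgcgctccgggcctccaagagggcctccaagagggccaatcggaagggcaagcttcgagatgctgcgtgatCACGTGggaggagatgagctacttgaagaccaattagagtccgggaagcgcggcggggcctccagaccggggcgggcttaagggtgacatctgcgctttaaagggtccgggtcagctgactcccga
ATP6V0D1: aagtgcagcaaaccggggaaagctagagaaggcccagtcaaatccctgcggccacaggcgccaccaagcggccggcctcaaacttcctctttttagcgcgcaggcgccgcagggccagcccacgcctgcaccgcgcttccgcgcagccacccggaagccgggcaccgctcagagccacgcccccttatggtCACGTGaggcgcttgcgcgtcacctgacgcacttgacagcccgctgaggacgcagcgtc
The match of these letters describes the sequence, and binding was not measured.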

How the data were processed

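Samples were grouped by GEO title, which gives the plasmid and the experiment. The authors sequenced paired 75-base reads from a stranded polyA library, trimmed them with PRINSEQ and Trimmomatic 0.33, and ran kallisto 0.46.0 on Ensembl 96 transcripts (FastQC 0.11.9, GRCh38, per the labels and the methods). They deposited estimated counts and TPM values per transcript, and reads shared by similar transcripts are split by the estimate. Here both were summed per gene through GENCODE 29 (169797 of 188753 transcripts matched, 97.4 to 97.5% of counts) and the sums of counts rounded. The strand setting of kallisto is not given in the sources used here.

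Counts were tested with edgeR 4.0.16 in R 4.3.3 (limma 3.58.1, DESeq2 1.42.0 for alternatives) by quasi-likelihood with TMM scaling, filterByExpr (minimum count 10, total 15) and terms for group and experiment. All 12 libraries entered 1 fit, and 6 comparisons were made, each adjusted over 15098 genes. The experiment number was used as a block because the labels give it as a shared experiment. The deviations of same-numbered construct libraries correlated with each other at 0.325 to 0.529. Those of a GFP library and a construct library correlated at only 0.038 to 0.264, lowest in experiment 1. The comparisons with GFP rely on these weaker pairs. A self-test was run on simulated counts only, and no statement here rests on its outcome. Log2 ratios to the GFP library used CPM + 0.5. The members and lists were chosen with earlier results of these data known. Genes named in full were TFEB and TFE3, each member called with all constructs, the member with the highest TPM in each role, the 2 members with the smallest p in each comparison between constructs, and up to 10 called genes of the wider list. NPC1, ULK1, ATG16L1 and others given by value were added to show the rest of each role.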

Additional observations from a re-analysis of the deposited data

How the results depend on the processing

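The count of the 37 genes called with all constructs was 9 with the replicate block for experiment, and the pairing mattered: with the term for experiment 1 against 2 and 3 in its place the counts for all constructs, WT, ΔGS and ΔADAM were 4, 0, 1 and 0, and with neither term they were 0, 0, 0 and 0. With experiments 2 and 3 alone they were 0, 0, 0 and 0, and with the 1.5-fold limit added 1, 0, 1 and 1. For WT TYRO3, with 1 call, library totals without TMM, limma at either pseudocount and at least 10 counts in every library gave 2, no filter 3, DESeq2 6 and a fit of only the groups compared 0. For ΔGS, with 5 calls, DESeq2 gave 8 and a fit of only the groups compared 2. For ΔADAM, with 8 calls, library totals without TMM gave 4 and limma at either pseudocount 3. Leaving out 1 library at a time gave 2 to 13 calls for all constructs, 0 to 6 for WT, 1 to 5 for ΔGS and 0 to 9 for ΔADAM. The cause of these shifts was not tested. No setting gave a call between constructs.

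The log2 fold change of TFEB was 0.07, ranged from -0.06 to 0.25 when 1 library was left out, and turned to -0.02 with no block or batch term, -0.12 and -0.18 in limma with pseudocounts of 1 and 0.1, and -0.06 and -0.03 without the GFP library of experiment 2 or 3. The 9 called genes, TFE3 and MITF kept their direction under every setting. The log2 fold change of TYRO3 against GFP stayed between 4.55 and 5.50 under every setting. The low depth of the GFP library of experiment 1 limits all comparisons with GFP in that experiment.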
